A study of Homo sapiens with 16 samples.

Results

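The 10 genes described here build or maintain the epithelial state of a cell: 7 encode tight junction proteins (CLDN1, CLDN3, CLDN4, CLDN7, OCLN, TJP1 and F11R), 2 encode epithelial splicing regulators (ESRP1 and ESRP2), and GRHL2 encodes an epithelial transcription factor. They were taken by their symbols from a table of 35993 genes, and all 10 were among the 21297 genes that passed the filter on low counts. The samples are RNA-seq libraries of human bladder cancer cells, from the established lines RT112, J82, 253J and TCCSUP, all of wild-type genotype in the labels. Each line was given either CM-1758, a histone deacetylase inhibitor, for 48 h at the inhibitory concentration (IC50) found for that line, or 0.01% DMSO as the vehicle control. 253J, J82 and RT112 were grown in DMEM and TCCSUP in EMEM, so that line and medium cannot be told apart in comparisons with TCCSUP, and the dose differed between lines.

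Each of the 8 groups held 2 libraries, which the study's methods describe as independent biological replicates, and every p-value measures the spread between such libraries only. Library totals ran from 22506431 to 32537104 counts. Levels are given as CPM, a gene's count scaled to the TMM-normalized total of its library. They are not corrected for gene length, so a level is compared between libraries and never between genes. Changes are log2 fold changes, CM-1758 minus control, with their standard error (SE) and a p-value from edgeR's quasi-likelihood test, adjusted over all 21297 genes. An adjusted p under 0.05 was the limit for a call. Counts of 3 or fewer per library were taken as the floor of detection. The 2 J82 control libraries differed most of all replicate pairs, their counts giving a chi-square per degree of freedom of 74.4, with 11.8 to 50.3 in the other 7 groups.

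Tight junctions seal neighbouring epithelial cells together near their apical side. Claudins are membrane proteins that form the junction strands and set which ions pass, occludin (OCLN) and the junctional adhesion molecule JAM-A (F11R) are further membrane proteins of the junction, and ZO-1 (TJP1) is the scaffold that ties them to actin. ESRP1 and ESRP2 bind RNA and favour the epithelial splice forms of many transcripts, and GRHL2 is a transcription factor that activates junction and other epithelial genes. In the urothelium, the lining of the bladder, such junctions form part of the barrier against urine, and tumour cells that take on mesenchymal traits commonly lose them. Counts per gene hold no splice forms, so the activity of ESRP1 and ESRP2 on their targets was not measured here.

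The control cells of the 4 lines differed in all 10 genes (adjusted p between 4.91e-13 and 0.00176, F test of edgeR over the 4 lines), as did 78.8% of all tested genes. RT112 stood above the other lines in CLDN4, CLDN7, F11R, ESRP1, ESRP2 and GRHL2. For these 6 of the 10 genes both RT112 control libraries lay above all 6 other control libraries, against 17.5% of all tested genes. In OCLN and TJP1 the order was the opposite and RT112 had the lowest control level of the 4 lines. By pairs of lines, control levels differed in 10 of the 10 genes between 253J and RT112 (54.3% of all genes), in 9 between J82 and RT112 (52.1%) and in 9 between TCCSUP and RT112 (51.5%), and in 7 between 253J and J82 (53.1%), 8 between 253J and TCCSUP (53.1%) and 7 between J82 and TCCSUP (48%).

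**Figure D1:**
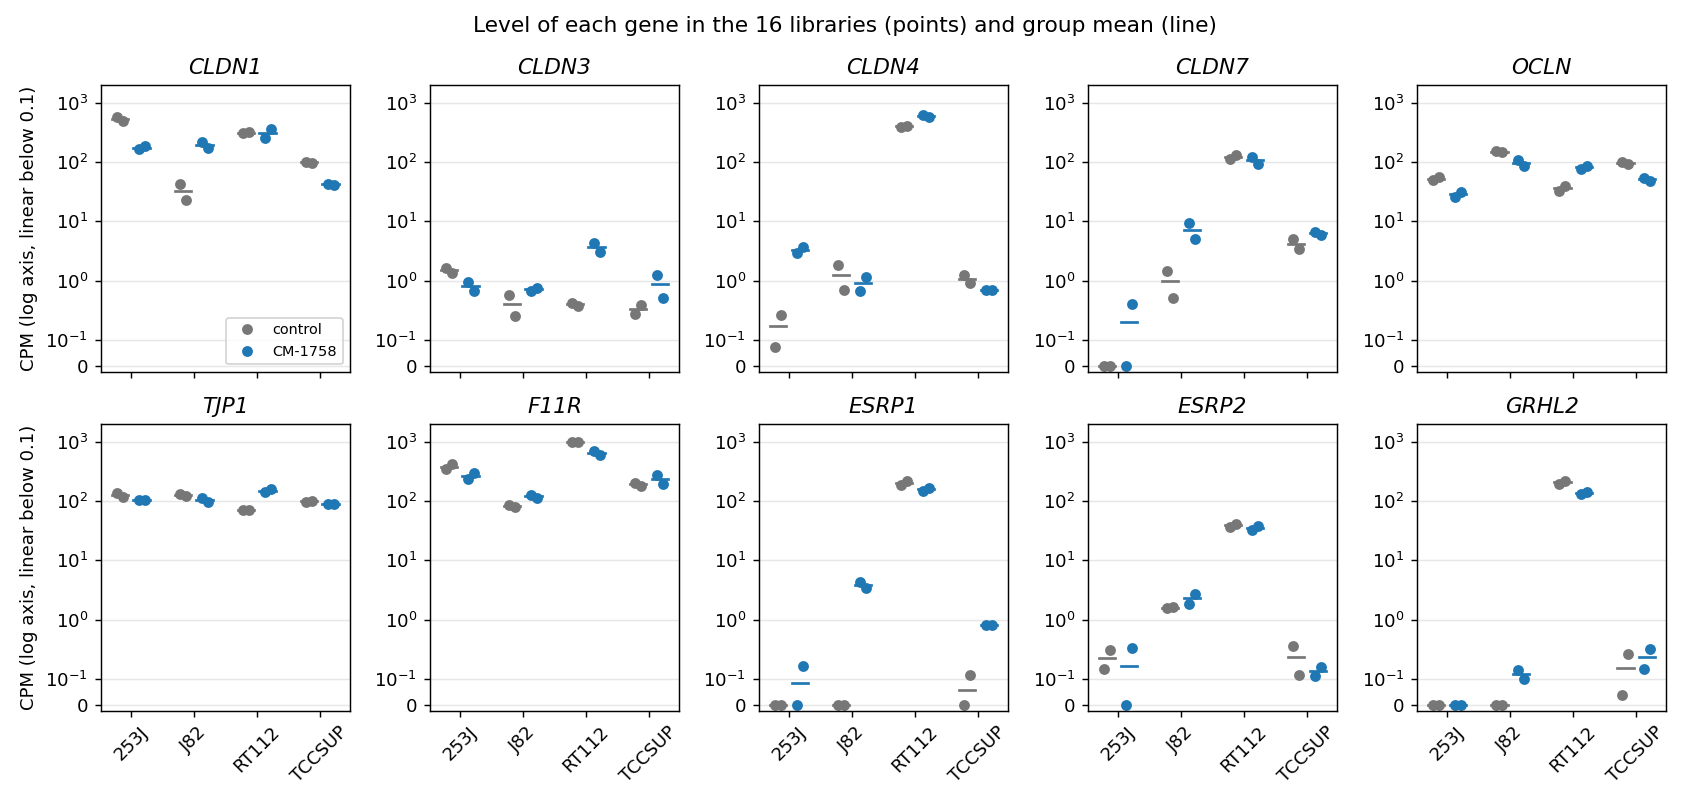
Level of each of the 10 genes in the 16 libraries, in CPM on a log axis that is linear below 0.1. Grey points are control and blue points CM-1758 libraries, and each line marks the mean of a group of 2. ESRP1 and GRHL2 lie above 130 CPM in RT112 and below 5 CPM in all libraries of the other lines, whereas TJP1 stays between 70.8 and 157 CPM in all 16 libraries.

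CLDN1 was measured in all control lines. The 2 control libraries of 253J held 573 and 487 CPM, those of RT112 306 and 316, those of TCCSUP 102 and 98.2, and those of J82 42.5 and 23.1. The order 253J, RT112, TCCSUP, J82 held with no overlap, and all 6 pairs of lines differed. The neighbours 253J and RT112 were closest, with a log2 difference of 0.77 (SE 0.23, adjusted p = 0.0101 in edgeR). That pair no longer passed when either the second 253J control library or the first RT112 control library was left out, the adjusted p reaching 0.0761.

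CLDN3 was low in every control line. The 253J libraries held 1.67 and 1.34 CPM, and the other 6 control libraries lay between 0.254 and 0.57 CPM. 253J was above each of the other lines, by 1.86 (SE 0.50) on the log2 scale against J82, 1.90 (SE 0.50) against RT112 and 2.17 (SE 0.52) against TCCSUP, with adjusted p of 0.00545, 0.00427 and 0.00243 in edgeR. J82, RT112 and TCCSUP did not differ beyond their spread in CLDN3. Without the third J82 control library, the difference between 253J and J82 did not pass (adjusted p = 0.0632), and without the first it was 2.54.

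CLDN4 and CLDN7, claudins of differentiated epithelium, separated RT112 from the rest. For CLDN4 the RT112 control libraries held 394 and 407 CPM, those of J82 1.82 and 0.691, those of TCCSUP 1.23 and 0.919, and those of 253J 0.0724 and 0.268. The mean of RT112 was 317 times that of J82 and 374 times that of TCCSUP, which did not differ from each other. For CLDN7 the control libraries of RT112 held 115 and 132 CPM, those of TCCSUP 5.07 and 3.41 and those of J82 1.48 and 0.509, and both 253J libraries had 0 counts, which allows up to 3 counts in each. All 6 pairs of lines differed in CLDN7, with J82 minus TCCSUP at -2.09 on the log2 scale (SE 0.49, adjusted p = 0.00288 in edgeR), or -3.04 without the first J82 control library.

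The membrane proteins F11R and OCLN had nearly opposite orders. F11R held 1000 CPM in each RT112 control library, 345 and 420 in 253J, 202 and 182 in TCCSUP and 86.4 and 78.7 in J82. OCLN held 152 and 148 CPM in J82, 102 and 91.9 in TCCSUP, 50.1 and 55.2 in 253J and 32.9 and 39.3 in RT112. No libraries of different lines overlapped in either gene, and all 6 pairs of lines differed in both. The OCLN difference between 253J and RT112, of 0.54 on the log2 scale (SE 0.16, adjusted p = 0.00866 in edgeR), was lost when 1 library was left out, with an adjusted p of up to 0.108 without the third 253J or the first RT112 control library.

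TJP1, the scaffold, varied least between lines. J82 held 134 and 122 CPM, 253J 135 and 119, TCCSUP 96.6 and 101 and RT112 70.8 and 71.8. J82 and 253J did not differ beyond their spread, and both lay above TCCSUP, which lay above RT112. The differences of 253J and of J82 from TCCSUP, of 0.36 and 0.37 on the log2 scale (SE 0.13 each), had adjusted p of 0.0283 and 0.0243 in edgeR and did not pass when single libraries were left out, with adjusted p of up to 0.207 and 0.136 without the second 253J or the first J82 control library, or without either TCCSUP control library. That of J82 also failed with RLE scaling (0.0785), library size alone (0.0655), a filter of 10 counts in every library (0.055) and control libraries alone (0.0779), that of 253J without a filter (0.0529), and that between TCCSUP and RT112 with library size alone (0.0656).

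The regulators were highest in RT112, and outside it ESRP1 and GRHL2 were near the floor in control cells. ESRP1 held 189 and 215 CPM in the RT112 control libraries, 0 counts in both libraries of 253J and of J82, and 0 and 3 counts in TCCSUP. GRHL2 held 195 and 221 CPM in RT112, 0 counts in both libraries of 253J and of J82, and 1 and 7 counts in TCCSUP. ESRP2 held 36.8 and 41.6 CPM in RT112, 1.56 and 1.64 in J82, 0.356 and 0.115 in TCCSUP and 0.145 and 0.306 in 253J. Thus J82 control cells had no ESRP1 count but a measurable ESRP2 level, which was above those of 253J by 2.81 (SE 0.56) and of TCCSUP by 2.75 (SE 0.56) on the log2 scale (adjusted p = 0.000573 and 0.000858 in edgeR). With single control libraries left out, the difference from TCCSUP was 3.75 without its first and 2.15 without its second library, and 253J minus J82 was -3.42 without the third 253J library. GRHL2 passed between TCCSUP and both lines at 0 counts (adjusted p = 0.0137 against 253J and 0.0152 against J82), on those few counts only, and failed without the second TCCSUP control library or without any 1 library of the line at 0, at adjusted p of up to 0.236.

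With CM-1758, 9 of the 10 genes passed in at least 1 line. The share of all tested genes that did so was not counted, so this is not read as particular to the 10. Calls in both directions were made for 4 of the 10, against 12.9% of all tested genes. In 253J, 1 of the 10 genes was higher and 3 were lower, against 28.8% higher and 22.4% lower among all tested genes. In J82, 5 were higher and 1 lower (24% and 18.5% of all genes), in RT112 4 were higher and 2 lower (27.4% and 20.2%), and in TCCSUP 2 were higher and 2 lower (32% and 22.1%). The median log2 fold change of the 10 genes was 0.67 in J82, -0.29 in 253J, -0.080 in RT112 and 0.077 in TCCSUP, and that of all tested genes was 0.047, 0.10, 0.12 and 0.20 in the same order. Under the study's own rule, a log2 fold change above 2 or below -2 with an adjusted p under 0.01, 3 genes were higher in J82 (8.81% of all genes) and 1 each in RT112 (11.4%), TCCSUP (14.2%) and 253J (9.43%), and 0 were lower in any line (1.24%, 1.39%, 3.31% and 3.5% of all genes, in the same order).

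0 of the 10 genes were called in the same direction in all 4 lines, against 6.69% of all genes higher and 6.01% lower in all 4. CLDN1, OCLN, F11R and GRHL2 were higher in 1 line and lower in at least 1 other. These were 4 of 10 genes, against 12.9% of all tested genes. For F11R and GRHL2 this rests on calls in J82 that were lost without the third control or the first treated library of that line, and for GRHL2 on 4 and 3 counts. The response differed between the lines for 9 of the 10 genes in an F test over 3 contrasts (edgeR, adjusted p between 7.48e-07 and 0.042), as it did for 51.9% of all genes. ESRP2 was the exception, with an adjusted p of 0.511.

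**Figure D2:**
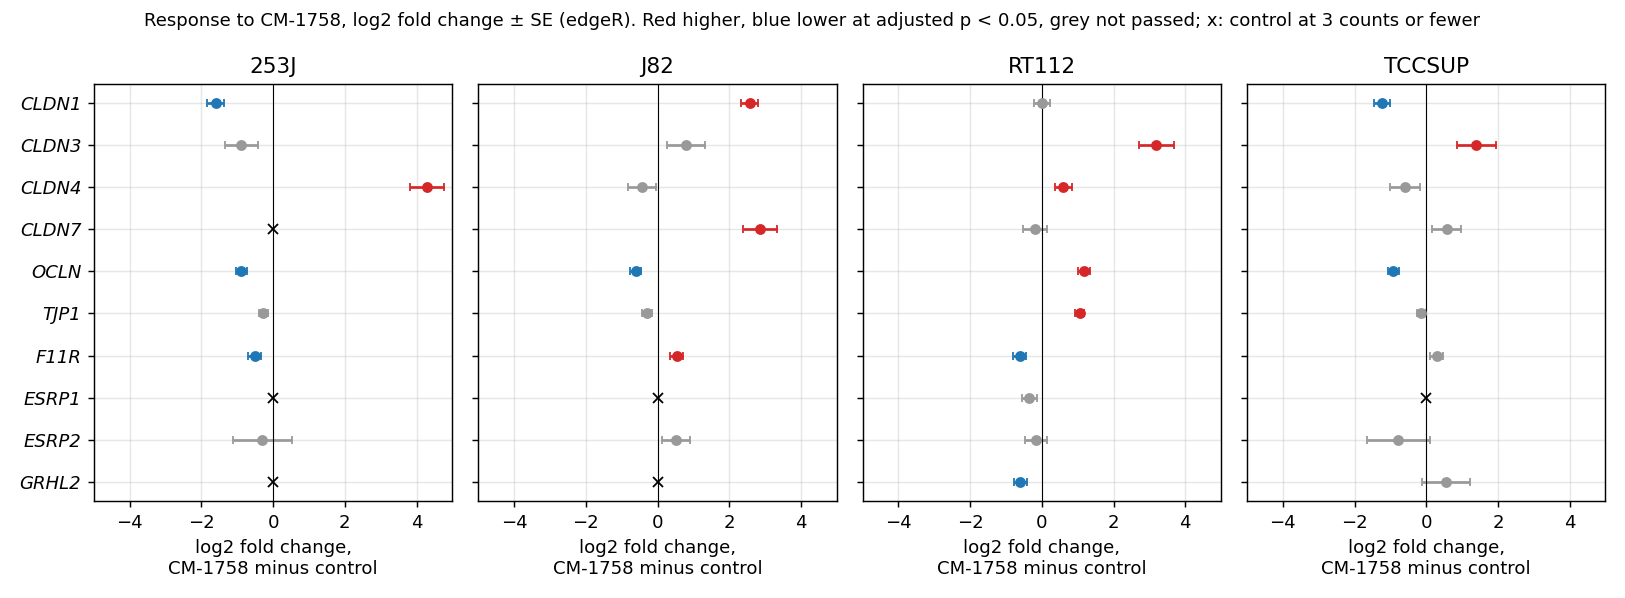
Log2 fold change with CM-1758 in each line, with its standard error from edgeR. Red points were called higher and blue points lower at an adjusted p under 0.05, grey points did not pass, and a cross at 0 marks a gene at 3 counts or fewer in both control libraries, for which no fold is drawn. CLDN1 lies at -1.61 in 253J and 2.57 in J82, and OCLN and TJP1 lie to the right of 0 in RT112 only.

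CLDN1 fell in the lines 253J and TCCSUP and rose in J82. In 253J it went from 573 and 487 CPM in control to 164 and 184 with CM-1758 (log2 fold change -1.61, SE 0.23, adjusted p = 4.13e-05 in edgeR). In TCCSUP it went from 102 and 98.2 to 43.5 and 41.7 CPM (-1.23, SE 0.24, adjusted p = 0.000468). In both lines the treated libraries lay well below the control libraries.

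CLDN1 in J82 went from 42.5 and 23.1 CPM to 216 and 174 CPM, a log2 fold change of 2.57 (SE 0.24, adjusted p = 1.41e-06 in edgeR). Even the higher control library lay far below both treated ones. RT112 held 306 and 316 CPM in control and 256 and 366 with CM-1758, and the treated libraries enclosed the control ones (0.0015, SE 0.23). The J82 response was above that of each other line, by 4.18 (SE 0.34) against 253J, 3.80 (SE 0.34) against TCCSUP and 2.57 (SE 0.33) against RT112, all passing in edgeR, while 253J and TCCSUP did not differ (adjusted p = 0.453). Such differences of response passed for 30% of all genes between 253J and J82 and for 28.6% between 253J and TCCSUP. After treatment the mean CLDN1 level of RT112 was 1.59 times that of J82, against 9.48 times in control.

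CLDN3, which forms barrier strands, rose in RT112. Its RT112 libraries went from 0.425 and 0.373 CPM to 4.27 and 3.09 CPM (3.19, SE 0.49, adjusted p = 9.09e-05 in edgeR), from 13 and 11 counts to 109 and 81. TCCSUP went from 0.277 and 0.383 to 1.24 and 0.512 CPM (1.40, SE 0.54, adjusted p = 0.0399). There the 2 treated libraries were themselves far apart, and the call was lost without either control library (adjusted p = 0.179 and 0.0843), without the first treated library (0.463) and in DESeq2 (0.0561). In 253J the values were 1.67 and 1.34 against 0.951 and 0.675 CPM and in J82 0.57 and 0.254 against 0.68 and 0.745 CPM. Neither passed (-0.89, SE 0.46, and 0.79, SE 0.53), although control and treated libraries did not overlap.

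CLDN4 rose from near the floor in 253J. There it went from 0.0724 and 0.268 CPM, which were 2 and 7 counts, to 2.97 and 3.71 CPM, which were 75 and 110 counts (4.28, SE 0.47, adjusted p = 3.02e-06 in edgeR). That response was larger than in each other line, by 4.72 (SE 0.64) against J82, 3.68 (SE 0.55) against RT112 and 4.87 (SE 0.67) against TCCSUP, with adjusted p of 6.5e-05, 0.000151 and 7.43e-05. The treated 253J level was still far under that of RT112, whose mean CPM was 182 times higher after treatment and 2350 times higher in control. These values rest on the 2 and 7 control counts of 253J. Without the second or the third 253J control library the response was 3.62 or 5.44, and the control difference, 253J minus RT112, was -10.52 or -12.34 on the log2 scale, against -11.18.

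In RT112, CLDN4 was 394 and 407 CPM in control and 630 and 585 with CM-1758 (0.60, SE 0.22, adjusted p = 0.0385 in edgeR). The groups did not overlap, but the call was lost without any 1 of the 4 RT112 libraries, with adjusted p from 0.0832 to 0.156. J82 held 1.82 and 0.691 CPM in control and 0.68 and 1.15 with CM-1758, overlapping, and TCCSUP 1.23 and 0.919 against 0.711 and 0.708. Neither passed (-0.44, SE 0.39, and -0.59, SE 0.43). In J82 the value depended on the control library kept, at 0.41 without the first (adjusted p = 0.485) and -0.98 without the third (adjusted p = 0.0354).

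CLDN7 rose in J82, from 1.48 and 0.509 CPM in control to 9.49 and 5.04 with CM-1758 (2.87, SE 0.47, adjusted p = 0.000251 in edgeR). Without the first control library the change was 3.82, and it passed without any 1 of the 4 libraries. Its J82 response exceeded that of RT112 by 3.06 (SE 0.58, adjusted p = 0.00182; 22.2% of all genes differed between these lines) and that of TCCSUP by 2.30 (SE 0.63, adjusted p = 0.0172). RT112 stayed at 115 and 132 against 123 and 92.9 CPM, overlapping, and TCCSUP held 5.07 and 3.41 against 6.7 and 5.86 CPM without passing (-0.19, SE 0.33, and 0.57, SE 0.40). 253J had 0 counts in both control libraries and 0 and 12 counts with CM-1758 (adjusted p = 0.0798). That gene passed in 253J in DESeq2 (0.00654) and without the treated library at 0 (0.0226), so its call rests on 1 library.

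ELP5 lies on the opposite strand and overlaps the end of CLDN7 in the GENCODE annotation, and whether the counting used strand is not given in the sources used here. ELP5 moved the other way in J82, from 31.5 and 32.6 CPM to 20.6 and 22.4 CPM, and held 34.5 to 35.5 CPM in the 253J control libraries, where CLDN7 had 0 counts.

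In J82 the first control library exceeded the third in each of the 4 claudins, at 42.5 against 23.1 CPM for CLDN1, 0.57 against 0.254 for CLDN3, 1.82 against 0.691 for CLDN4 and 1.48 against 0.509 for CLDN7. The other measured junction genes were closer, at 152 and 148 CPM for OCLN, 134 and 122 for TJP1 and 86.4 and 78.7 for F11R.

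CLDN3, CLDN4 and CLDN7 each had the largest called rise of the 4 claudins in a different line (RT112, 253J and J82), and their promoters are shown to compare the sequence before each start site. The sequences are the 250 bases before the annotated start in RefSeq on GRCh38.p14, 5′ to 3′ on the strand of the gene, for CLDN3 at chr7:73770271-73770520 on the minus strand, for CLDN4 at chr7:73830746-73830995 on the plus strand, and for CLDN7 at chr17:7262479-7262728 on the minus strand, 1 of 2 CLDN7 starts. Capitals mark E-boxes, the letters CAGGTG or its reverse complement CACCTG, to which repressors of the SNAIL and ZEB families bind.
CLDN3: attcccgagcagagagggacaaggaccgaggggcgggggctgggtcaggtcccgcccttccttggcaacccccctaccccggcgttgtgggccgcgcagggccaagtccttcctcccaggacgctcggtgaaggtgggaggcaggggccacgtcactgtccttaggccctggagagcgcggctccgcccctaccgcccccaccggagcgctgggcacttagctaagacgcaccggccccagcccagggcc
CLDN4: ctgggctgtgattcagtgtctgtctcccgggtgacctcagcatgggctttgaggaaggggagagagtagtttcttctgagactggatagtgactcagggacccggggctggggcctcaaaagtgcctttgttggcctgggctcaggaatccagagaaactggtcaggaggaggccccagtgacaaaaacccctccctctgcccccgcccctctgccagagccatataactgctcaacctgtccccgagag
CLDN7: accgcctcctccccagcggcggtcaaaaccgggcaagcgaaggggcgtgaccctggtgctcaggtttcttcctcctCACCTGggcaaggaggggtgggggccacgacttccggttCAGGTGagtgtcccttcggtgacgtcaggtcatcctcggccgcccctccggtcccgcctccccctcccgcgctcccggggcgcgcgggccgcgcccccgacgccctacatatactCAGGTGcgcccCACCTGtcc
The CLDN7 sequence held 4 E-boxes and those of CLDN3 and CLDN4 held 0. This CLDN7 start is shown for its E-boxes, and the window of the other CLDN7 start held 0. CLDN3 had 1 E-box past its start, within the 50 bases that follow it.

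RefSeq's table gave 11 promoters for 6 of the genes (CLDN1, CLDN3, CLDN4, CLDN7, OCLN and TJP1). In the window from 250 bases before to 50 bases after the start, an E-box was in 5 of the 11, against 20.6% of 35116 promoters of all genes. The GC box, GGGCGG or CCGCCC, which Sp1 family factors bind, was in 8 of the 11 against 45% of all. The letters AACNNGTT, a core of grainyhead-like binding sites that reads the same on both strands, were in 0 of the 11 against 3.52%, and TATAAA or TTTATA in 0 against 11.5%. Both strands were searched, each motif was counted by itself where it overlapped another, and the 2 OCLN windows overlap each other. A match is a description of letters only.

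OCLN was called in all 4 lines, lower in 3 and higher in RT112. It went from 50.1 and 55.2 CPM to 25.4 and 31.5 in 253J (-0.89, SE 0.16, adjusted p = 0.000276 in edgeR). The values in TCCSUP were 102 and 91.9 in control against 54.2 and 48.2 CPM with CM-1758 (-0.92, SE 0.16, adjusted p = 0.000194). In J82 they were 152 and 148 against 110 and 86.3 CPM (-0.61, SE 0.16, adjusted p = 0.00529). In these 3 lines every treated library lay below every control library, and the J82 call was lost without the third treated library (adjusted p = 0.072) and with edgeR fitted to J82 alone (0.0592).

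In RT112, OCLN went from 32.9 and 39.3 CPM in control to 75.7 and 87 with CM-1758 (1.17, SE 0.16, adjusted p = 3.19e-05 in edgeR). Its response in RT112 was above that of 253J by 2.06 (SE 0.23), of J82 by 1.78 (SE 0.22) and of TCCSUP by 2.09 (SE 0.22), with adjusted p of 9.17e-06, 4.68e-05 and 7.43e-06, while none of the 3 other pairs of lines passed (adjusted p between 0.377 and 1). Responses of RT112 differed from those of 253J, J82 and TCCSUP in 30%, 22.2% and 27.5% of all genes. RT112 thus went from the lowest OCLN level of the 4 control lines to a mean of 81.3 CPM, with 98.1 in J82, 51.2 in TCCSUP and 28.4 in 253J. A near-identical copy, OCLNP1, was counted at 3.45% to 7.3% of the OCLN count in each library, so a part of the OCLN reads is uncertain.

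TJP1 was called in RT112 only, where its libraries went from 70.8 and 71.8 CPM to 140 and 157 CPM (1.06, SE 0.13, adjusted p = 1.18e-05 in edgeR). 253J held 135 and 119 against 105 and 104 CPM (-0.28, SE 0.13, adjusted p = 0.0801), and J82 134 and 122 against 113 and 96.2 (-0.29, SE 0.13, adjusted p = 0.0766). TCCSUP was at 96.6 and 101 against 90.6 and 89.7 CPM (-0.13, SE 0.13). In those 3 lines the treated libraries lay below the control libraries by less than the test required. The RT112 response exceeded each of theirs, by 1.34 (SE 0.18) against 253J, 1.35 (SE 0.18) against J82 and 1.19 (SE 0.18) against TCCSUP, with adjusted p of 6.21e-05, 8.58e-05 and 0.000174. The mean RT112 level was 0.561 times that of 253J in control and 1.42 times with CM-1758.

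**Figure D3:**
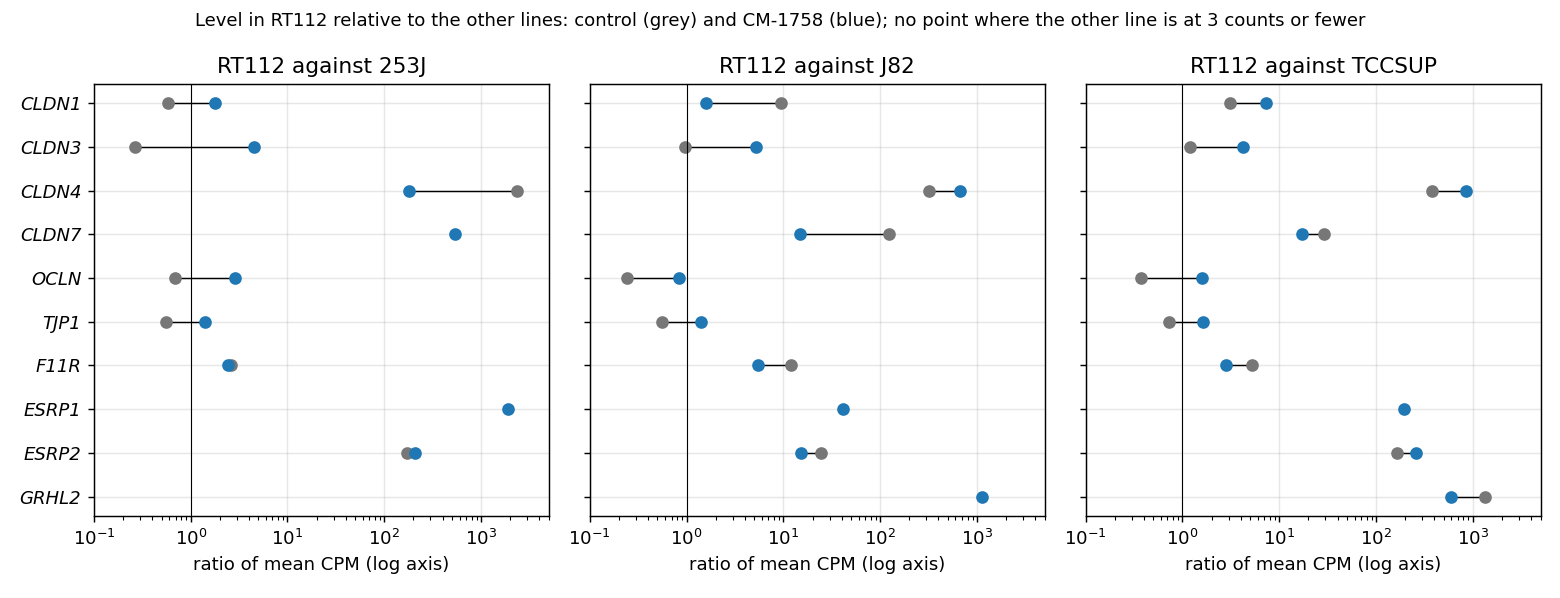
Mean CPM of RT112 divided by that of each other line, on a log axis, in control (grey) and with CM-1758 (blue), 1 row per gene. A ratio is left out where the other line held 3 counts or fewer in both libraries. For OCLN and TJP1 the ratios move to the right against all 3 lines, from 0.241 to 0.829 for OCLN against J82, for example, and for F11R they move to the left, from 12.1 to 5.47 against J82.

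F11R fell in RT112 and 253J and rose in J82. In RT112 it went from 1000 CPM in both control libraries to 708 and 607 (-0.61, SE 0.18, adjusted p = 0.012 in edgeR), and in 253J from 345 and 420 to 238 and 299 CPM (-0.51, SE 0.18, adjusted p = 0.0286). J82 went from 86.4 and 78.7 to 129 and 111 CPM (0.54, SE 0.18, adjusted p = 0.0267). The control and treated libraries did not overlap in these lines, and the changes were 1.42-fold in 253J, 1.45-fold in J82 and 1.53-fold in RT112.

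In TCCSUP, F11R held 202 and 182 CPM in control and 277 and 193 with CM-1758, overlapping (0.29, SE 0.18, adjusted p = 0.195 in edgeR). The response differed between RT112 and J82 by 1.15 (SE 0.26, adjusted p = 0.00484), between 253J and J82 by 1.05 (SE 0.26, adjusted p = 0.0061) and between RT112 and TCCSUP by 0.90 (SE 0.26, adjusted p = 0.0164). That of TCCSUP was also above that of 253J, by 0.80 (SE 0.26, adjusted p = 0.0295 in edgeR). The calls within lines were not firm. That in 253J was lost without the third control or the first treated library (adjusted p = 0.204 and 0.217), that in J82 without the third control or the first treated library (0.119 and 0.0764), and that in RT112 without the first or second control or the second treated library (0.0509, 0.0501 and 0.103). The J82 call was also lost with edgeR fitted to that line alone (0.0617). TCCSUP passed without its second treated library (0.0417) and with at least 10 counts in every library (0.44, adjusted p = 0.0481). Scaled by library size alone, which shifted the median of all genes upward (0.31 in TCCSUP, 0.27 in 253J and 0.15 in both J82 and RT112, on the log2 scale), F11R no longer passed in 253J (-0.24, adjusted p = 0.301) or RT112 (-0.46, adjusted p = 0.0533) and passed in TCCSUP (0.60, adjusted p = 0.0136). F11R and its neighbour TSTD1 share a readthrough gene model, and TSTD1 was counted at 0.313 to 25 CPM.

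ESRP1 appeared in J82 and TCCSUP. J82 had 0 counts in both control libraries and 121 and 100 counts with CM-1758, or 4.33 and 3.39 CPM, at least 34.6-fold higher against a floor of 3 counts per library (adjusted p = 1.28e-06 in edgeR). TCCSUP had 0 and 3 counts in control and 22 and 21 with CM-1758, or 0.824 and 0.826 CPM, at least 7.06-fold higher (adjusted p = 0.000785). The calls in both lines held without any 1 of their libraries. Those treated levels were still low beside RT112, which held 189 and 215 CPM in control and 149 and 168 with CM-1758, so that the mean of treated RT112 was 41.2 times that of treated J82 and 193 times that of treated TCCSUP.

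In RT112 the treated ESRP1 libraries lay below the control ones without passing (-0.35, SE 0.21, adjusted p = 0.19 in edgeR), and passed when edgeR was fitted to the RT112 libraries alone (adjusted p = 0.0301). The response in RT112 differed from that in J82 (adjusted p = 5.58e-06) and in TCCSUP (adjusted p = 0.00128). 253J had 0 counts in both control libraries and 0 and 5 with CM-1758 (adjusted p = 0.0794). It passed in DESeq2 (0.0359) and without the treated library at 0 (0.0202), again on 1 library.

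ESRP2, which overlaps in function with ESRP1, did not pass in any line. J82 held 1.56 and 1.64 CPM in control and 1.86 and 2.71 with CM-1758 (0.52, SE 0.39, adjusted p = 0.313 in edgeR), RT112 36.8 and 41.6 against 32.3 and 37.8 (-0.16, SE 0.31), TCCSUP 0.356 and 0.115 against 0.112 and 0.157 (-0.78, SE 0.88), and 253J 0.145 and 0.306 against 0 and 0.337 CPM (-0.30, SE 0.82). Only in J82 did the groups not overlap. In TCCSUP and 253J these were 0 to 10 counts per library. In 253J a fall passed without the third treated library (adjusted p = 0.0221), which left the treated library at 0 alone.

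GRHL2 fell in RT112, from 195 and 221 CPM in control to 134 and 140 with CM-1758 (-0.60, SE 0.18, adjusted p = 0.0161 in edgeR). The groups did not overlap, but the call was lost without the second control library (adjusted p = 0.112), without either treated library (0.0842 and 0.0582) and with scaling by library size alone (-0.46, adjusted p = 0.0613). 253J had 0 counts in all 4 libraries. J82 had 0 counts in both control libraries and 4 and 3 with CM-1758, which passed at an adjusted p of 0.0286 but not without any 1 of the 4 libraries (0.0538 to 0.101), and these counts lie at the floor. TCCSUP had 1 and 7 counts in control and 4 and 8 with CM-1758 (adjusted p = 0.508). Outside RT112, GRHL2 had at most 8 counts in any library, with or without CM-1758. In J82, where ESRP1 and CLDN7 rose, it had at most 4, and a link between GRHL2 and these genes was not tested.

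The genes whose log2 CPM over the 16 libraries was most like that of GRHL2, among 14210 genes with a mean log2 CPM above 0, were S100P (Pearson r = 0.99), KRT13 (0.982) and UPK1B (0.978). In these, too, RT112 stood apart: S100P averaged 696 CPM in RT112 control cells and at most 0.306 in the control cells of another line. Among the genes most like CLDN7 were ADIRF (0.971) and AQP3 (0.966). For TJP1 the likeness was looser, with SRGAP1 (0.839), MYBL1 (0.824) and TEC (0.817), and SRGAP1 averaged 9.4 CPM in RT112 control cells against up to 37.3 in another line. The 16 libraries are pairs from 4 lines, so these values describe mainly the differences between lines.

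The relatives of the 10 genes were read from lists written with earlier results of these data known. The counts in these lists stand against 24% to 32% of all tested genes higher and 18.5% to 22.4% lower in a line, and 6.69% higher and 6.01% lower in all 4 lines. Of 18 other claudins, 11 were tested, and CM-1758 raised 2 and lowered 2 in 253J, raised 4 and lowered 1 in J82, raised 4 and lowered 0 in RT112, and raised 2 and lowered 2 in TCCSUP. CLDN16, a claudin known from magnesium reabsorption in the kidney, fell in 253J from a mean of 199.6 to 53.3 CPM (-1.90, SE 0.18), and in J82 it was at least 5.43-fold higher against 0 control counts. CLDN23 rose in RT112 from 7.55 to 53.2 CPM (2.81, SE 0.23) and in TCCSUP from 2.91 to 19.2 CPM (2.72, SE 0.24). Its rise in J82 was smaller, from 11.97 to 20.2 CPM (0.76, SE 0.21), and it did not pass in 253J. CLDN12 fell in 253J (-0.69), J82 (-0.38) and TCCSUP (-0.69). CLDN11, known from myelin and testis, rose in J82 (2.05, SE 0.20) and fell in TCCSUP (-0.65, SE 0.20). 0 of the 11 moved the same way in all 4 lines.

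Among 30 partners of the junction (scaffolds, polarity proteins and further membrane proteins), 8 were higher and 6 lower in 253J, 14 and 5 in J82, 13 and 6 in RT112, and 16 and 6 in TCCSUP. In this list 5 genes were higher in all 4 lines, CGN, CRB3, MAGI1, PRKCZ and TJP3, named after their values were seen, and 0 were lower in all 4. TJP3, which encodes the scaffold ZO-3, rose by 3.61 (SE 0.37) in 253J, 7.22 (SE 0.62) in J82 and 2.10 in RT112, and was at least 94-fold higher in TCCSUP. JAM3, a relative of F11R, rose in RT112 from 0.151 to 18.9 CPM (6.94, SE 0.36) and in TCCSUP from 3.47 to 38.9 CPM (3.49, SE 0.24). It did not pass in 253J or J82. MARVELD2, which encodes tricellulin, a relative of occludin at corners between cells, rose in 253J from 0.316 to 0.964 CPM (1.61, SE 0.36). It fell in TCCSUP (-2.23, SE 0.18), J82 (-0.59, SE 0.17) and RT112 (-0.53, SE 0.16). CXADR rose in J82 from 4.04 to 46.2 CPM (3.52, SE 0.32) and in TCCSUP from 1.21 to 89.9 CPM (6.21, SE 0.38). It did not pass in 253J or RT112. The median of the list was 0.76 in TCCSUP, 0.50 in J82, 0.46 in RT112 and 0.13 in 253J, or 0.43, 0.45, 0.43 and 0.18 over the genes above 3 counts in both groups.

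**Figure D4:**
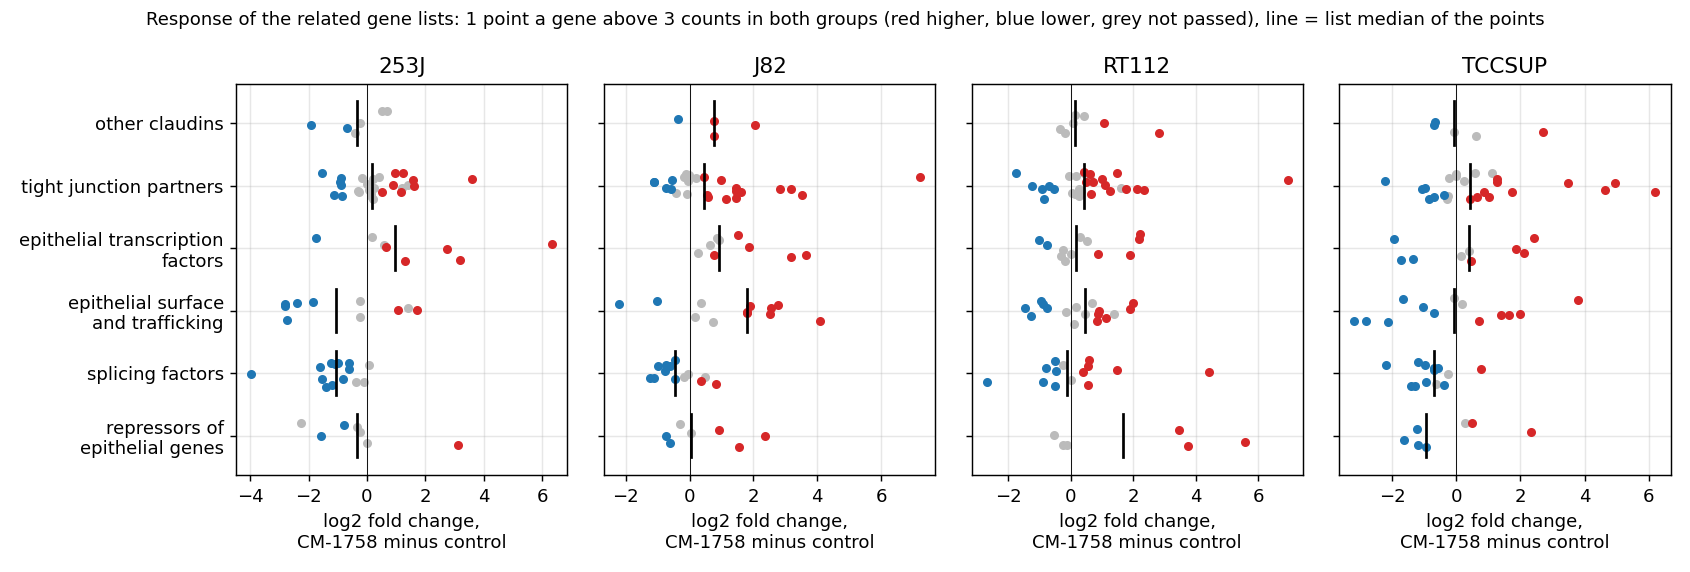
Log2 fold changes with CM-1758 of the related gene lists in each line, 1 point per gene above 3 counts in both groups, red where higher, blue where lower and grey where not passed, with a bar at the median of the points. The splicing factors lie mostly to the left of 0 in 253J, where 0 were higher and 11 lower, and 6 were higher and 6 lower in RT112.

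Of 12 epithelial transcription factors, 5 were higher and 1 lower in 253J, 7 and 0 in J82, 4 and 2 in RT112, and 7 and 3 in TCCSUP. GRHL1 and TFCP2L1, relatives of GRHL2, were higher in all 4 lines. GRHL1 went from 3.03 to 10.9 CPM in J82 (1.85, SE 0.19) and from 48.4 to 87.4 in RT112 (0.85, SE 0.16), the line in which GRHL2 fell. TFCP2L1 rose by 3.18 (SE 0.30) in 253J, 3.66 (SE 0.32) in J82 and 2.17 (SE 0.27) in RT112 and was at least 57.8-fold higher in TCCSUP. TP63, a factor of basal urothelial cells, rose in 253J from 0.113 to 9.44 CPM (6.35, SE 0.50) and in TCCSUP from 0.832 to 3.61 CPM (2.10, SE 0.39). It did not pass in J82 or RT112. FOXA1 fell in 253J (-1.74, SE 0.20), TCCSUP (-1.36, SE 0.18) and RT112 (-1.02, SE 0.17) and rose in J82 (0.75, SE 0.22).

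The 17 epithelial surface and trafficking genes went both ways, with 3 higher and 5 lower in 253J, 9 and 2 in J82, 6 and 5 in RT112, and 7 and 6 in TCCSUP. CDH1, which encodes E-cadherin of the adherens junction, fell in 253J from 181 to 26.1 CPM (-2.80, SE 0.22). It rose in J82 from 3.82 to 26.1 CPM (2.77, SE 0.24) and in RT112 from 467 to 874 CPM (0.90, SE 0.21), and did not pass in TCCSUP. AP1M2, an adaptor subunit of epithelial sorting, fell in 253J from 49.2 to 7.12 CPM (-2.80, SE 0.26) and in TCCSUP from 20.5 to 2.26 CPM (-3.17, SE 0.28). AP1M2 and MARVELD1 were lower in all 4 lines, and LLGL2 and TMEM125 (the latter named after its values were seen) higher in all 4. In 253J, TMEM125 was at 0 in control and had a treated mean of 0.169 CPM. Its groups overlapped there, so that call rests on 1 library.

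Splicing factors that act beside or against the ESRP proteins were lower more often than higher in 253J, J82 and TCCSUP, and equally often in RT112. Of 14 tested, 0 were higher and 11 lower in 253J, 2 and 8 in J82, 6 and 6 in RT112, and 2 and 10 in TCCSUP, against 18.5% to 22.4% of all genes lower in a line. HNRNPM, MBNL1, MBNL3, PTBP1, PTBP2 and SRSF1 were lower in all 4 lines and are named here for that. MBNL3 fell from 26.9 to 1.73 CPM in 253J (-3.95, SE 0.28) and from 47.7 to 7.38 in RT112 (-2.69, SE 0.25). SRSF1 fell from 543 to 176 CPM in 253J (-1.62, SE 0.14). RBM47, an epithelial splicing factor, fell in 253J (-1.18, SE 0.21) and rose in J82 (0.81, SE 0.21), TCCSUP (0.78, SE 0.21) and RT112 (0.54, SE 0.20). CELF2 rose in RT112 from 0.149 to 3.29 CPM (4.41, SE 0.40). The list median was -1.05 in 253J, -0.70 in TCCSUP, -0.45 in J82 and -0.13 in RT112.

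Among 10 repressors of epithelial genes, 3 were higher and 2 lower in 253J, 4 and 2 in J82, 6 and 0 in RT112, and 3 and 4 in TCCSUP. SNAI1 was higher in all 4 lines, by 5.56 (SE 0.62) in RT112, 3.11 (SE 0.49) in 253J, 2.38 (SE 0.64) in J82 and 2.33 (SE 0.46) in TCCSUP, and so was SNAI3. ZEB2 fell in 253J from 13.2 to 4.4 CPM (-1.59, SE 0.22), in J82 from 72.2 to 43.3 CPM (-0.74, SE 0.19) and in TCCSUP from 45.5 to 14.7 CPM (-1.63, SE 0.20). In RT112 it was at least 9.08-fold higher, at 0.907 CPM after treatment. In RT112, where SNAI1 rose from 0.185 to 8.84 CPM, CLDN3, CLDN4, OCLN and TJP1 were called higher and F11R and GRHL2 lower. A link between SNAI1 and these genes was not tested.

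Markers checked the labels. In 253J the 8 epithelial markers went from 3180 to 4330 CPM in sum in control libraries to 1850 to 2340 with CM-1758. In TCCSUP they went from 1230 to 1360 to 379 to 473. KRT18 led both falls. It went from 2800 and 1860 to 866 and 667 CPM in 253J and from 900 and 1040 to 188 and 138 in TCCSUP. KRT8 was also lower in both lines, CDH1 in 253J, and KRT7 and EPCAM in TCCSUP. KRT19 was higher, at 913 and 841 against 1180 and 948 CPM in 253J and 112 and 119 against 194 and 169 in TCCSUP. EPCAM was higher in 253J. In J82 the 8 epithelial markers summed to 5940 to 8070 CPM in control libraries and 6930 to 7860 with CM-1758. In RT112 they summed to 6560 to 6720 and 5600 to 6430 CPM. Single markers moved both ways within these sums. In J82, KRT7 went from 1430 and 1990 to 649 and 321 CPM, and KRT18 from 1560 and 2130 to 2750 and 3060. In RT112, KRT7, KRT19 and KRT5 were lower, and KRT8, EPCAM, CDH1 and GATA3 higher. There KRT7 went from 1770 and 1930 to 1050 and 921 CPM, and CDH1 from 461 and 473 to 875 and 872. KRT5 was at 0 in 253J, in J82 and in treated TCCSUP cells. CDH1, EPCAM and GATA3 of that list and CLDN5 of the endothelial list also belong to lists above. The 8 leukocyte markers summed to at most 72.7 CPM, with MS4A1 at 0 in each group. The 8 endothelial markers summed to 2.97 to 17.4 CPM outside TCCSUP. In TCCSUP their sum went from 194 to 228 CPM in control to 23.1 to 24.8 with CM-1758. That fall was of TEK, at 226 and 193 CPM in control and 12.7 and 14 with CM-1758. VWF, CDH5, KDR and ESAM were higher there with CM-1758, at up to 4.75 CPM. The 8 mesenchymal markers went from 6280 to 6890 CPM in 253J control libraries to 2860 to 2970 with CM-1758, from 1980 to 2340 to 4120 to 4670 in J82, from 889 to 963 to 1620 to 1670 in RT112, and from 13600 to 14200 to 2380 to 2860 in TCCSUP. The J82 sum was led by FN1, at 1200 and 885 CPM in control and 3770 and 3460 with CM-1758, while VIM (279 and 314 against 168 and 131), COL1A2 (295 and 203 against 164 and 109) and SPARC were lower with CM-1758. FN1 also led the RT112 rise, at 879 and 953 against 1610 and 1560 CPM, and the other markers were higher there too. In TCCSUP COL1A2 led the fall, at 5060 and 5350 against 273 and 240 CPM. Only VIM was higher there, at 3.96 and 3.75 against 14.5 and 14.8. The 253J fall was led by SPARC, at 3610 and 3370 against 478 and 448 CPM. VIM overlapped in 253J (1690 and 1310 against 1430 and 1290), and COL1A2, PDGFRB and THY1 were higher, at up to 0.742 CPM. Of the 8, PDGFRB, THY1 and SPARC were at 0 in RT112 control cells and 0 markers were at 0 in treated RT112 cells. Their part in the results above was not tested, and in such bulk samples fewer cells of a type and less RNA per cell cannot be told apart.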

How the data were processed

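The authors deposited 1 table of raw counts, whole numbers of reads per gene symbol for 16 libraries, made with a stranded, ribosome-depleted kit. The submitters' notes name HISAT2, StringTie and GRCh37. The counting tool is not given in the sources used here, and the authors tested differences with DESeq2. Columns were matched to samples by their labels, 0 were left over, and 0 rows lacked a gene name. Counts were filtered by edgeR's filterByExpr with the 8 groups, normalized by TMM and fitted with edgeR 4.0.16 in R 4.3.3 (quasi-likelihood, 8 residual degrees of freedom, common biological coefficient of variation 0.153), and p-values were adjusted by Benjamini-Hochberg within each contrast. The SE is taken from the log2 fold change and its F statistic. Log2 CPM used a prior count of 2.

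The members, gene lists and the rule for names were chosen with earlier results of these data known. By that rule all 10 members are named, and of each list in each line up to 2 called genes with the largest and 2 with the smallest change, libraries not overlapping and mean log2 CPM above 0. Likeness is the highest Pearson r. On simulated counts for 21297 genes, of 200 genes changed 4-fold in RT112, 160 were called there and 13 other genes. A comparison of claudin proteins was not made here, and values of a few listed genes that the rule would name are not reported here. Floors cover counting error only.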

Additional observations from a re-analysis of the deposited data

Results flagged for a closer look

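For 9 genes the response to CM-1758 differed between the cell lines in a test of the difference itself, an F test of 3 contrasts of treatment by line in edgeR, adjusted over 21297 genes, of which 51.9% also passed. The adjusted p was 7.48e-07 for CLDN1, which was lower in 253J (-1.61) and TCCSUP (-1.23) and higher in J82 (2.57). It was 6.27e-06 for OCLN and 4.71e-05 for TJP1, both higher in RT112 (1.17 and 1.06). It was also 6.27e-06 for ESRP1, which went from 0 counts in both control libraries to 121 and 100 counts in J82. For CLDN4 it was 6.7e-05, with the largest change in 253J (4.28), for CLDN3 0.00114, with the largest change in RT112 (3.19), and for CLDN7 0.00283, with the largest called change in J82 (2.87). F11R had 0.00288, with changes of -0.61 in RT112 and 0.54 in J82. GRHL2 had 0.042, which rose to between 0.0533 and 0.115 when single libraries were left out, any J82 library, any RT112 library, or the second treated TCCSUP library. The dose differed between the lines and TCCSUP had another medium, so that line, dose and medium cannot be told apart. Groups of 2 libraries were too small for a search for outlying libraries.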

How the results depend on the processing

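Of the tests of a response that differs between lines, 64 kept their call under the 9 alternatives other than leaving out libraries, where they could be fitted. With the study's rule the members lower were 0 in each line, and those higher were 3 in J82, 1 in RT112 and 1 in TCCSUP. At least 10 counts in every library left 11984 genes and 4 of the 10 members, so that fewer could be called: 0 higher in 253J, 1 in TCCSUP (F11R, not called without this filter), and 2 each in J82 and RT112, 1 lower in RT112, 4 with differing responses, and 3 or 4 per pair of control lines. Scaling by library size alone left 0 members lower in RT112, where 3404 genes were lower, against 4307. It called 7752 genes higher and 3570 lower in 253J, against 6134 and 4781, and 8898 and 3137 in TCCSUP, against 6808 and 4710. DESeq2 called 3 members higher in 253J and 1 in TCCSUP, beside 5979 and 6313 of 21297 genes. Fitted to its own libraries, J82 had 3 members higher and 0 lower, and 3600 genes higher and 2504 lower, against 5111 and 3933; the cause was not tested. With 10 counts in every library, the genes called higher were 3897 in 253J, 3729 in TCCSUP, 3324 in RT112 and 3209 in J82. E-boxes were in 3 of 11 promoters within 100 bases of the start.

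The replicate numbers were not shown to pair samples (correlations of deviations 0.0173 in TCCSUP, 0.218 in J82 and 0.0427 in RT112, and 253J shared 1 number). With the number as a replicate block, 2 members were higher in 253J and 2 lower in J82, beside 4502 and 4391 of 21297 genes. CLDN7 in 253J and TCCSUP and TJP1 in J82 then passed in edgeR (adjusted p = 0.0163, 0.0368 and 0.0338), and CLDN3 in TCCSUP did not (0.0922). ESRP2 in 253J (0.14) and CLDN1 in RT112 (-0.021) changed sign.

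Values not called in edgeR changed sign elsewhere. TJP1 between 253J and J82 controls (-0.019) was 0.080 with RLE, 0.087 with library size alone, 0.086 with the stricter filter, 0.080 in DESeq2 and 0.045 over control libraries alone. CLDN3 between J82 and RT112 controls (0.039) was -0.016, -0.19, -0.015 and -0.014 with RLE, library size alone, DESeq2 and control libraries alone. TJP1 in TCCSUP (-0.13) was 0.18 with library size alone and 0.018 with the stricter filter, and CLDN1 in RT112 was -0.0085 without a filter.

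Leaving out 1 library at a time changed the number of members called in each line. The share of all genes called in those fits was not counted. Signs changed for uncalled responses of CLDN1 in RT112 (-0.28 to 0.24), CLDN4 in J82 (-0.98 to 0.41), GRHL2 in TCCSUP (-0.22 to 2.41), and ESRP2 in 253J (-5.63 to 0.58) and TCCSUP (-1.38 to 0.21), CLDN7 and ESRP1 in 253J fell to 0 (up to 6.48 and 5.24), and uncalled control differences turned for CLDN3 (J82 to RT112 -0.64 to 0.51, J82 to TCCSUP -0.37 to 0.78), CLDN4 (J82 to TCCSUP -0.63 to 0.77), ESRP2 (253J to TCCSUP -0.67 to 0.94) and TJP1 (253J to J82 -0.12 to 0.071). The difference of ESRP2 responses passed without the third treated 253J library (adjusted p = 0.0357). A test of differing responses over the libraries of 1 line alone was not run. Depth limits the values at 10 counts or fewer, among them ESRP1 in 253J, ESRP2 in 253J and TCCSUP, and GRHL2 outside RT112.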
